A study of Mus musculus with 4 samples.

Results

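Serpina1a, Serpina1b, Serpina1c, Serpina1d and Serpina1e, the mouse genes for alpha-1-antitrypsin, were taken by their gene symbols from the mRNA tables of 4 livers. All 5 were listed among the 8797 genes of each table, and all 5 had an allele frequency in every mouse, which 3632 of the 8797 genes had. The livers came from 4 female F1 hybrids of the inbred strains B6 and MSM at 5 months of age, 2 with MSM as the mother and B6 as the father (here MSM-mother mice 1 and 2, numbered as the labelled replicates) and 2 of the reverse cross (B6-mother mice 1 and 2). All 4 mice carried a B6 and an MSM copy of every autosome, so no mouse of a pure strain entered the comparisons. Polyadenylated RNA of whole liver was sequenced, and the tables give for each gene its expression in FPKM (mapped fragments relative to transcript length and library size) and the B6-allele frequency. The latter is the number of B6-derived reads over the number of reads derived from either allele, as told from known SNPs. A frequency of 0.5 stands for equal use of both alleles. The tables hold no read numbers, so the depth behind each value is unknown, and the precision given here is the spread between mice.

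Alpha-1-antitrypsin is a serpin, a protease inhibitor that hepatocytes secrete into the blood and that is best known for inhibiting neutrophil elastase. A serpin presents an exposed reactive centre loop to the protease as bait, and after cleavage the loop inserts into the body of the inhibitor and traps the enzyme. Humans carry a single functional gene for this protein, whereas the laboratory mouse has several tandem copies whose products differ in the reactive loop and in the proteases they inhibit.

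In the mm10 assembly with the GENCODE M21 annotation, the 5 genes lay side by side on the minus strand of chromosome 12. From low to high coordinates the order was Serpina1b (chr12:103728156-103738158), Serpina1d (chr12:103763594-103773592), Serpina1a (chr12:103853591-103863551), Serpina1c (chr12:103894926-103904887) and Serpina1e (chr12:103947011-103956898), with gaps of 25.4, 80.0, 31.4 and 42.1 kb. Each principal transcript had 5 exons and 413 codons. A longer annotated transcript of Serpina1b, which starts at position 103830373, spans Serpina1d on the same strand.

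The coding sequences were nearly the same. Pairwise identity over 1242 coding bases ranged from 96.30% to 98.47%, and the closest pair was Serpina1a and Serpina1c with 19 differing bases. In all, 86 of the 1242 bases were not the same in all 5 genes. They were unevenly spread, with 18 in the 621 bases from the start codon on and 68 in the following 621. The 27 codons from the hinge of the reactive centre loop onward, which lie in the last exon, held 18 differing bases in 81 (22.2%), against 68 in the other 1161 (5.86%). This stretch overlaps the most variable window of the coding sequence and holds the loop that meets the protease. It is shown for all 5 genes on the coding strand, with the bases that are not identical in all 5 in capitals.
Serpina1b: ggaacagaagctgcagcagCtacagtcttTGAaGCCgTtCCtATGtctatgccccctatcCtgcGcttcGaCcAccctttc
Serpina1d: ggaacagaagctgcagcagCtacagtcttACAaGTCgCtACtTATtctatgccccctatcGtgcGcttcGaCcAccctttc
Serpina1a: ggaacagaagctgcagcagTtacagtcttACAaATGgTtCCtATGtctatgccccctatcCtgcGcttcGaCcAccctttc
Serpina1c: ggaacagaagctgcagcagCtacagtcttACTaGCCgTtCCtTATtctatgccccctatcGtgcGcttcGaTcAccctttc
Serpina1e: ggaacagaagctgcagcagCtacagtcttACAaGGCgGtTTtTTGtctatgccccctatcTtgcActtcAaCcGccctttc

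**Figure D1:**
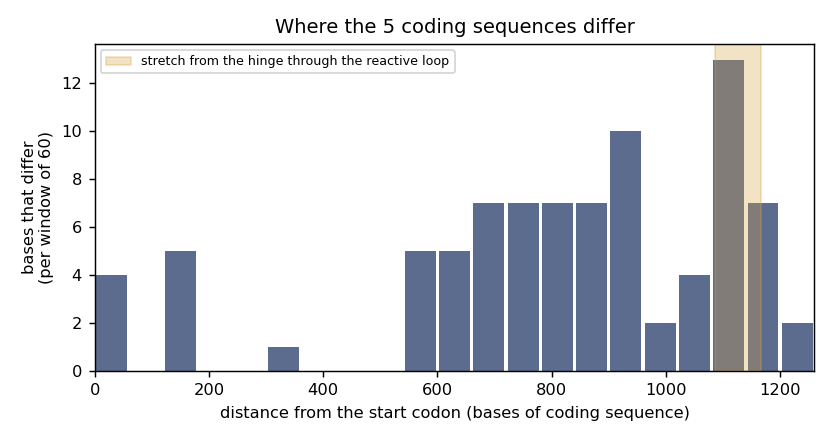
Number of coding bases that are not identical in all 5 genes (vertical axis) in consecutive windows of 60 bases along the coding sequence (horizontal axis, bases from the start codon; the last window is shorter). The shaded stretch from the hinge through the reactive loop holds 18 of the 86 differing bases, and the window of the highest bar, with 13, overlaps it.

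These stretches come from mm10 at chr12:103728317-103728397 (Serpina1b), chr12:103763755-103763835 (Serpina1d), chr12:103853750-103853830 (Serpina1a), chr12:103895087-103895167 (Serpina1c) and chr12:103947093-103947173 (Serpina1e). Between pairs of genes the loop stretch differed at 5 bases (Serpina1c and Serpina1d) to 12 bases (Serpina1e with either Serpina1a or Serpina1c). Serpina1a and Serpina1c, the closest pair over the whole coding sequence, differed at 10 of the 81 bases, which is more than the 6 between Serpina1a and Serpina1b. Because the reads were 150 bases long, windows of that length were compared between the B6 reference transcripts. In Serpina1a and in Serpina1c, 50.5% of the windows also occurred in another of the 5 genes without a difference. The share was 21.2% in Serpina1b, 20.2% in Serpina1d and 9.4% in Serpina1e. The authors' alignment kept a single position per read, so a read from such a window could be placed at another copy, and the values of single genes are uncertain. These shares do not measure that uncertainty, since windows that differ at a few bases and the sequences of MSM copies were not examined. The part of misplaced reads in the differences between the genes was not tested, and the number of copies in the MSM genome was not analysed here.

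A stretch of the upstream regions was similar too. RefSeq promoters (GRCm38.p6, 250 bases before to 50 after the annotated start) were found for all 5 genes. A stretch of 130 bases within them was placed by the letters GTTAAT, which all 5 share, and the rest was not compared. These letters lay at -78 from the annotated start in Serpina1e and at -16 to -27 in the other genes. The stretch had 14 bases that were not identical in all 5 genes, which are in capitals here. It is shown for the genes with the highest expression (Serpina1b), the lowest expression (Serpina1e) and the lowest B6-allele frequency (Serpina1d).
Serpina1b: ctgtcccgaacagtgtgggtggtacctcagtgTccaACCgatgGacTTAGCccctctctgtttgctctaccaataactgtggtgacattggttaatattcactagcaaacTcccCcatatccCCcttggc
Serpina1e: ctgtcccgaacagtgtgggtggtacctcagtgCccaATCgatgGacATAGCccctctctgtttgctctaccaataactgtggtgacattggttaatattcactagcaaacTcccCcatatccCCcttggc
Serpina1d: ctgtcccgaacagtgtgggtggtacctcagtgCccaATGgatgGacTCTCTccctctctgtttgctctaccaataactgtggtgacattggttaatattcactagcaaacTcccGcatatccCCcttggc

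They lie on the minus strand at chr12:103738176-103738305, chr12:103956936-103957065 and chr12:103773610-103773739. Serpina1b and Serpina1e were 97.69% identical over this stretch (3 differing bases). Serpina1d was the most distant gene here, with 93.08% to 94.62% identity to the other members.

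Next, the FPKM of each gene was compared, a value scaled to transcript length. Reads that could be placed at another copy leave the levels of single genes uncertain. Serpina1b was the most highly expressed paralog, followed by Serpina1d, Serpina1a and Serpina1c, whereas Serpina1e was expressed at a small fraction of the others. Serpina1b had 7857 and 6447 FPKM in MSM-mother mice 1 and 2 and 6657 and 7061 FPKM in B6-mother mice 1 and 2, with a mean of 7005 ± 622 (SD, n = 4). Serpina1d had 5517, 4939, 5173 and 5827 FPKM in the same order of mice (mean 5364 ± 390). These 2 genes ranked 6 and 9 by mean FPKM among the 8797 genes, whose median was 11.5 FPKM.

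Serpina1a had 3347, 3855, 3436 and 4916 FPKM in these mice (mean 3888 ± 720, rank 17). Serpina1c had 3581, 2720, 2667 and 3253 FPKM (mean 3055 ± 439, rank 22). The ranges of these 2 genes overlapped, and in MSM-mother mouse 1 Serpina1c was the higher of them. Serpina1e, whose loop differs most from the others, had 44.9, 26.2, 69.5 and 97.6 FPKM (mean 59.5 ± 31.0, rank 1290). Its highest value was 3.73 times its lowest, the widest spread of the 5.

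**Figure D2:**
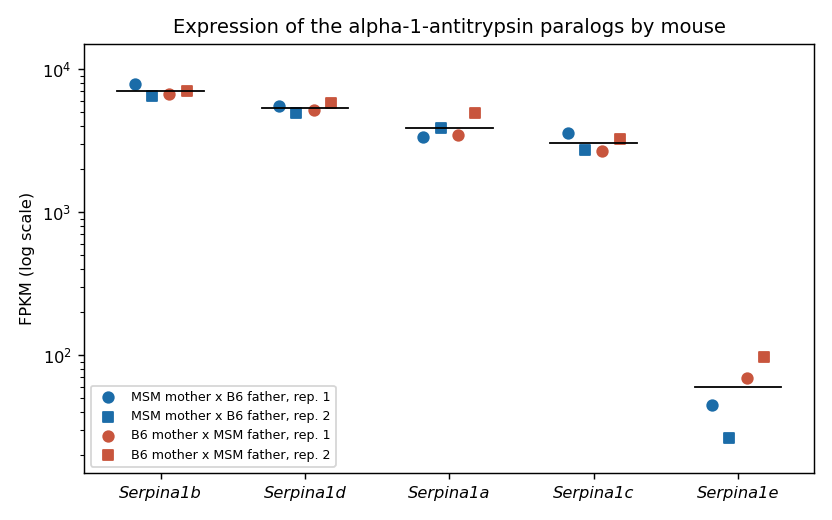
Expression of the 5 paralogs in FPKM on a log scale (vertical axis), ordered by mean level, with a point for each of the 4 mice and a line at their mean. Serpina1b to Serpina1c lie within 2667 to 7857 FPKM, and Serpina1e lies at 26.2 to 97.6 FPKM.

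Within each mouse, the order of neighbours was tested with a two-sided exact sign-flip permutation test of the log2 ratio, which cannot give a p below 0.13 with 4 mice. Serpina1b exceeded Serpina1d 1.30-fold, in 4 of 4 mice (log2 ratio 0.38 ± 0.10, SD; exact p = 0.13, adjusted over the 4 neighbouring pairs 0.167). Serpina1d exceeded Serpina1a 1.39-fold in 4 of 4 mice, with the same p-values (log2 ratio 0.48 ± 0.22). Serpina1a exceeded Serpina1c 1.27-fold in 3 of 4 mice (0.34 ± 0.31, exact p = 0.25, adjusted 0.25), so this order did not hold beyond the spread between mice. Serpina1c exceeded Serpina1e 57.1-fold, with 33.3-fold to 104-fold in single mice.

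The summed FPKM of the 5 genes was 20346 and 17987 in the MSM-mother mice and 18003 and 21155 in the B6-mother mice. This was 3.03% to 3.69% of the FPKM of all listed genes. The lowest share was that of MSM-mother mouse 1, in which the FPKM of all listed genes summed to 671875, against 529024 to 572780 in the others. That total includes Mir3470a with 47024.5 FPKM, the highest value of this mouse. The highest values of the other mice were 15147 to 17581 FPKM (Apoa2 or Mup9). Of the sum, Serpina1b made up 36.2%, Serpina1d 27.7%, Serpina1a 20.1%, Serpina1c 15.7% and Serpina1e 0.303% on average. The share of Serpina1d was the steadiest of the 4 abundant genes, at 27.1% to 28.7% in single mice, while that of Serpina1a went from 16.4% to 23.2%. In whole liver, a change in the number of hepatocytes and a change in RNA per hepatocyte cannot be told apart.

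To see whether the paralogs used their alleles in the same way, their B6-allele frequencies were compared. The measured frequencies lay on both sides of 0.5, slightly toward the B6 allele for Serpina1a and Serpina1b and toward the MSM allele for Serpina1c and Serpina1d. Reads placed at another copy could enter these frequencies, which was not tested. Serpina1a had frequencies of 0.569 and 0.581 in MSM-mother mice 1 and 2 and of 0.558 and 0.539 in B6-mother mice 1 and 2. The mean was 0.562 ± 0.0180 (SD, n = 4), or 1.28 B6 reads for each MSM read. Serpina1b, the most abundant paralog, had 0.526, 0.546, 0.534 and 0.539 in the same order of mice (mean 0.536 ± 0.00857). Both genes were above 0.5 in all 4 mice, by a small margin.

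Serpina1c, the closest relative of Serpina1a, had 0.430, 0.414, 0.426 and 0.425 (mean 0.424 ± 0.00682). Serpina1d had 0.381, 0.337, 0.334 and 0.299 (mean 0.338 ± 0.0334), or 1.97 MSM reads for each B6 read. These 2 genes were below 0.5 in all 4 mice, and no mouse of either overlapped with any mouse of Serpina1a or Serpina1b. Serpina1e had 0.511, 0.612, 0.622 and 0.568 (mean 0.578 ± 0.0503), above 0.5 in each mouse but with the widest spread of the 5. For comparison, the median SD of the frequency over the 4 mice was 0.0272 among all 3632 genes.

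**Figure D3:**
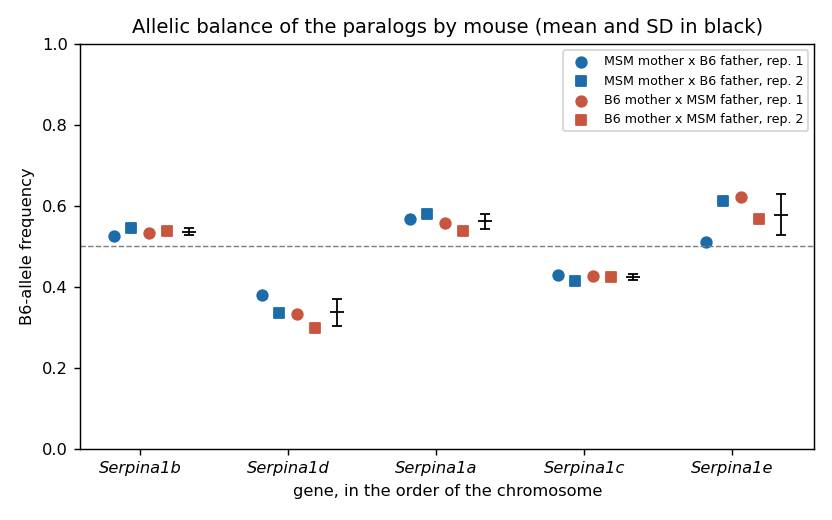
B6-allele frequency (vertical axis, 0 to 1) of the 5 paralogs in the order of the chromosome, with a point per mouse, the mean and SD in black, and equal allele use at 0.5 as a dashed line. Serpina1d (0.299 to 0.381) and Serpina1c (0.414 to 0.430) lie below the line and the other 3 genes above it.

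Imbalance was tested with limma on the frequencies as log2 odds, as the mean of both crosses against 0, with Benjamini-Hochberg adjustment over 3632 genes. It was called for 4 of the 5 paralogs, against 36.2% of all genes tested. The calls were 2 toward B6 (22.6% of all genes) and 2 toward MSM (13.6%). The log2 odds of Serpina1d were -0.98 (SE 0.08, limma adjusted p = 0.00787), and 4.65% of all genes had lower log2 odds. Those of Serpina1c were -0.44 (SE 0.04, limma adjusted p = 0.0109), those of Serpina1a 0.36 (SE 0.05, 0.0181) and those of Serpina1b 0.21 (SE 0.05, 0.0474). For Serpina1e they were 0.46 with a 95% interval of 0.05 to 0.87, and the gene did not pass (limma adjusted p = 0.0829).

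The quartiles of the log2 odds over all genes were -0.18 and 0.31, with a median of 0.06, and the median of the 5 members was 0.21. All 5 paralogs had all mice on the same side of 0.5, which 56.6% of all genes did. At the thresholds of the study, a mean of at least 0.8 or at most 0.2, none of the 5 was biased, against 3.19% of all genes. The calls rested on having 4 mice. With a mouse left out, Serpina1d alone was called without MSM-mother mouse 1 or 2 (1 call each), and none was called without B6-mother mouse 1 or 2 (0 calls). The calls among all genes fell with them from 1316 to 439, 514, 202 and 181, and each of these fits has fewer mice.

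The difference between paralogs was also taken within each mouse, for all 10 pairs. In 7 pairs the difference had the same direction in 4 of 4 mice, and the ranges of the genes did not overlap (two-sided exact sign-flip permutation test p = 0.13, the smallest possible, adjusted over 10 pairs 0.179). These were each of Serpina1a, Serpina1b and Serpina1e against each of Serpina1c and Serpina1d, and Serpina1c against Serpina1d. The closest relatives, Serpina1a and Serpina1c, differed by 0.80 ± 0.13 in log2 odds. Serpina1c exceeded Serpina1d by 0.53 ± 0.20. The largest difference was that of Serpina1d and Serpina1e (-1.44 ± 0.45). Among Serpina1a, Serpina1b and Serpina1e, each pair had the same direction in only 3 of 4 mice, and the ranges overlapped. With the same sign-flip test their exact p was 0.25 (Serpina1a and Serpina1b), 0.5 (Serpina1a and Serpina1e) and 0.25 (Serpina1b and Serpina1e). None of the 10 pairs had an adjusted p under 0.05, which this test cannot reach with 4 mice.

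Along the chromosome the measured frequencies alternated around 0.5, and the part of misplaced reads in this was not tested. The call of Serpina1b toward B6 was lost under some other settings. Serpina1b was on the B6 side, Serpina1d on the MSM side, Serpina1a on the B6 side, Serpina1c on the MSM side and Serpina1e above 0.5 without a call. The nearest listed genes with a frequency that are no clade A serpins were Ifi27, an interferon-inducible gene, with 0.521 to 0.595, and Dicer1, the microRNA-processing enzyme, with 0.488 to 0.554. Of 20 other clade A serpins of the cluster, 10 were listed and 8 had a frequency. Imbalance was called for 4 of these 8, against 36.2% of all genes. Serpina3m (mean 0.591) and Serpina3n (0.538) were called toward B6. Serpina6, which encodes corticosteroid-binding globulin (0.444), and Serpina12 (0 in all mice) were called toward MSM. The log2 odds of Serpina12 were set by the lower limit of 0.01 put on frequencies, the same in each mouse. Serpina3k (0.479), Serpina10 (0.549), Serpina11 (0.6 to 1) and Serpina3f (0.389) were not called, and Serpina3g and Serpina4-ps1 had an FPKM value only. Annotated transcripts of Serpina3k and Serpina3m overlap, so their values are uncertain.

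**Figure D4:**
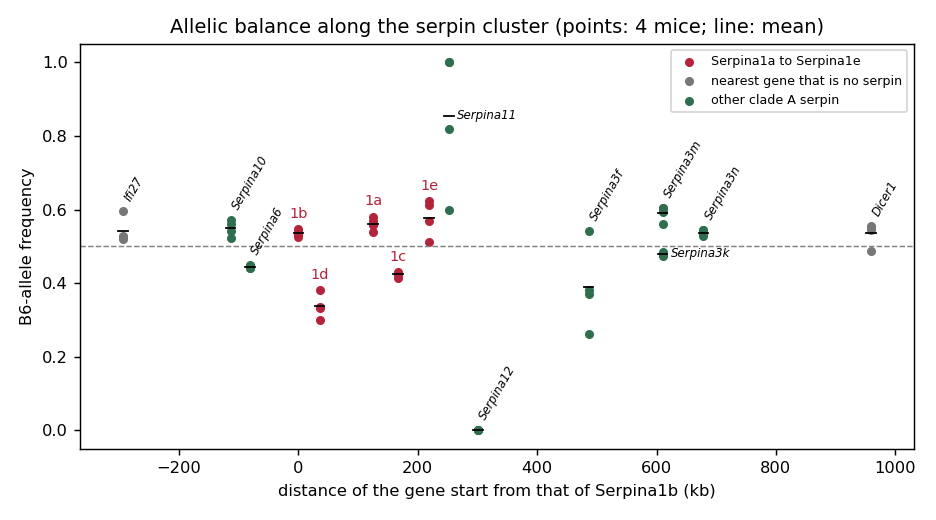
B6-allele frequency (vertical axis) of the serpins of the cluster and of the nearest other genes with a frequency, against the distance of each gene's lower end from that of Serpina1b in kb (horizontal axis), with a point per mouse and a line at the mean. Serpina1b, Serpina1d, Serpina1a, Serpina1c and Serpina1e lie alternately above and below 0.5 within 218.9 kb.

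To split the measured alpha-1-antitrypsin mRNA by allele, FPKM was multiplied by the frequency (B6 part) and by the rest (MSM part). This split was added after the values had been seen, and it takes the allele-assigned reads of a gene to stand for all its reads. Reads placed at another copy could enter both the FPKM and the frequency of a gene, so the parts of single genes are uncertain. The number of copies in the MSM genome was not analysed. In the B6 part, Serpina1b had 3754 ± 282 FPKM (SD, n = 4), Serpina1a 2178 ± 350, Serpina1d 1809 ± 198, Serpina1c 1297 ± 201 and Serpina1e 34.4. In the MSM part, Serpina1d had 3556 ± 359 FPKM, Serpina1b 3252 ± 343, Serpina1c 1758 ± 239, Serpina1a 1711 ± 378 and Serpina1e 25.1. In these measured values Serpina1b came first in the B6 part in all 4 mice, whereas Serpina1d came first in the MSM part in 3 of 4. The exception was MSM-mother mouse 1, in which Serpina1b led with 3725 against 3415 FPKM.

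**Figure D5:**
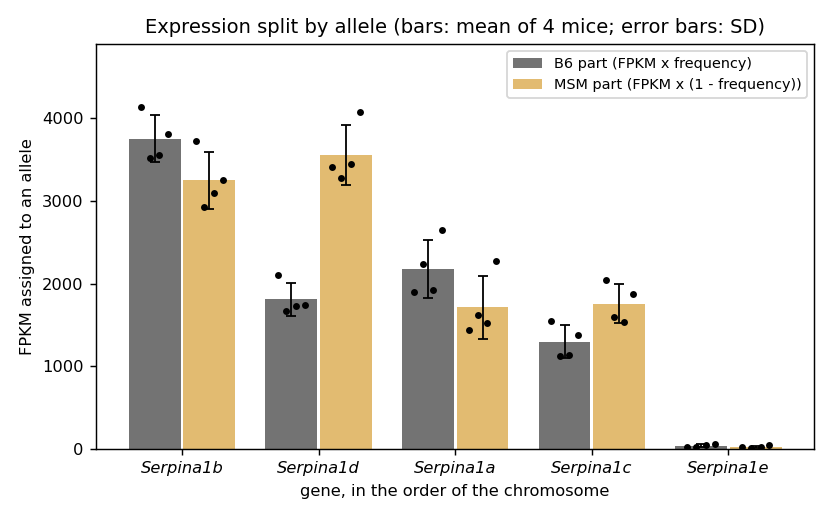
FPKM of each paralog split into a B6 part and an MSM part (vertical axis, linear from 0), in the order of the chromosome, with bars for the mean of 4 mice, error bars for the SD and points for single mice. The MSM part of Serpina1d (3556) is about as high as that of Serpina1b (3252), while its B6 part (1809) is below that of Serpina1a (2178).

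As a share of the family, Serpina1d made up 19.9% of the B6 part and 34.5% of the MSM part, a difference of 14.6 ± 2.94 percentage points. Serpina1c was also higher in the MSM part, by 2.82 ± 0.851 points. Serpina1b made up 41.4% of the B6 part and 31.6% of the MSM part (-9.77 ± 1.54 points), and Serpina1a 24.0% and 16.5% (-7.50 ± 1.23 points). Each of these 4 differences had the same sign in 4 of 4 mice, with an exact sign-flip permutation p of 0.13, the smallest possible. The sign only restates whether a gene's frequency lay below or above the B6 fraction of the 5 genes together. This test therefore adds no support beyond the frequencies. Since the shares of a part add up to the whole, they are not independent. For the 5 genes together the B6 fraction was 0.477, 0.476, 0.466 and 0.455, closer to 0.5 than that of Serpina1c or Serpina1d alone (mean 0.469 ± 0.0101). It was below 0.5 in 4 of 4 mice, with the same exact p = 0.13.

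The reciprocal crosses ask whether a bias follows the strain of an allele or the parent it came from. Serpina1a, Serpina1b, Serpina1c and Serpina1d kept the same favoured strain in both crosses. With limma, no paralog was called for a difference in frequency between the crosses (0 of 5, and 0 of 5 at an unadjusted p under 0.05), against 0.0826% of all genes, or 5.23% unadjusted. Serpina1d had the largest difference, with a mean of 0.359 with an MSM mother and 0.317 with a B6 mother (0.27 in log2 odds, 95% interval -0.21 to 0.76, limma adjusted p = 0.877). Serpina1a went the same way (0.15, interval -0.14 to 0.45), and in these 2 genes the mice of the crosses did not overlap, which was so for 34.3% of all genes. Serpina1b (-0.00, interval -0.29 to 0.28) and Serpina1c (-0.02, interval -0.29 to 0.25) were closest to no difference. For Serpina1e the interval of -1.02 to 0.62 was too wide to tell.

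Total expression was compared between the crosses with limma on log2(FPKM + 1), a scale that understates the change of low genes. None of the 5 paralogs was called (0 of 5), against 0.0455% of all genes, and 1 of 5 passed at an unadjusted p under 0.05, against 8.87%. This was Serpina1e, with a mean of 35.5 FPKM with an MSM mother and 83.6 FPKM with a B6 mother, a log2 difference of -1.24 (SE 0.29, 95% interval -1.96 to -0.52, limma adjusted p = 0.397). Its values in the 2 crosses did not overlap, which was also the case for 42.4% of all genes. The other 4 paralogs differed by -0.19 (Serpina1a), 0.05 (Serpina1b), 0.08 (Serpina1c) and -0.07 (Serpina1d), and their 95% intervals included 0 and lay within -0.82 to 0.67, with the signs of Serpina1b and Serpina1c turned by quantile normalization. The sum over the 5 genes differed by -0.03 on the log2 scale (exact permutation p = 0.667, with a smallest possible p of 0.333 for 2 against 2 mice).

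Lastly, lists of liver transcription factors, secretory pathway genes, and proteases and clearance receptors were looked up, with other major serum proteins to compare levels. Among liver transcription factors, Cebpa (182 FPKM), Hnf4a (172) and Nr1h4 (71.1) were the most highly expressed, and Hnf4a (0.542) and Cebpb (0.808) were called toward B6. Over all genes, imbalance was called for 36.2%, with 22.6% toward B6 and 13.6% toward MSM. The 26 genes of the secretory pathway, led by the chaperones Calr (437 FPKM), Hsp90b1 (347) and Hspa5 (213), held 3 calls among 10, all toward B6. These were Lman1 (0.567) and Mcfd2 (0.557), which form the cargo receptor for several secreted glycoproteins, and Sec24b (0.583), a coat protein. Of 13 proteases and clearance receptors 7 were listed, led by Plg (1283 FPKM), F2 (1073) and Asgr1 (543), and 1 of 3 was called, Lrp1 (0.643), the endocytic receptor that takes up serpin-protease complexes. Of 8 listed serum proteins, led by Apoa2 (17842 FPKM), Ahsg (7118) and Apoa1 (6313), Ttr, Ahsg and Hpx were called toward B6 and Fgb toward MSM. The frequencies of Fgb spread widely, from 0.207 to 0.4 (SD 0.0975), and the number of reads behind them is unknown. No gene of these 4 lists was called in expression between the crosses with limma, and 8 passed at an unadjusted p under 0.05. In the order of the lists these were 5 of 13, 2 of 26, 1 of 7 and 0 of 8 listed genes, against 8.87% of all genes.

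The 3 genes whose FPKM over the 4 mice was most like the sum of the 5 paralogs, among 854 genes with a mean of at least 100 FPKM, were Ces2a, Cyp2d26 and Apof. Their root mean square differences were 0.0202, 0.0326 and 0.0327 in log2 FPKM relative to the mean, against a median of 0.153. Since these are 4 values per gene, they describe these mice and carry no test. As for the tissue, 5 of 6 hepatocyte markers were listed, with a summed 13786 to 18712 FPKM per mouse, against 113 to 164 FPKM for 5 of 6 macrophage markers and 111 to 132 FPKM for 6 endothelial markers. Only Spp1 of 5 bile duct markers, Dcn and Reln of 5 stellate cell markers, Cela1 of 4 pancreas markers and none of 5 leukocyte markers were listed. The hepatocyte marker Cyp2e1 was listed at 0 FPKM in both mice with an MSM mother, although it had a frequency there, so a listed 0 need not mean that a gene was silent. The hepatocyte sums contain this gene, with 4876 and 6541 FPKM in B6-mother mice 1 and 2, so they cannot be compared between the crosses.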

How the data were processed

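The authors trimmed paired reads (Trim Galore) and mapped them to SNP-masked mm10 (TopHat2, strand-specific, 1 alignment per read), split them by allele with SNPsplit and counted each allele per gene with Cuffdiff (versions not given in the sources used here). The deposited values were FPKM and the B6-allele frequency, a fraction. How FPKM was estimated is not given in the sources used here.

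Frequencies were limited to 0.01 to 0.99 and converted to log2 odds. limma 3.58.1 (R 4.3.3) fitted all genes with the cross as a term, and expression on log2(FPKM + 1) with a variance trend, above a minimum mean of 1 FPKM. Tests were two-sided, adjusted by Benjamini-Hochberg, at 0.05. The limma tests were also run on simulated data, with planted shifts larger than those of the paralogs. That run does not show whether shifts as small as those of the paralogs would be called. Paralogs were compared within mice by exact permutation (scipy 1.17.1). The labels number the mice of a cross as replicates, and the authors describe them as progenies of that cross. Named were all members, the listed clade A serpins, the nearest other genes, the 3 genes most like the members, and of each list the 3 highest and any called gene. The markers named one by one and the paralogs' extremes follow no rule. Members and lists were chosen with earlier results of these data known. Sequences came from mm10 and RefSeq (GRCm38.p6). Histone acetylation data and read counts were not used here. Not every called gene of the lists is reported here.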

Additional observations from a re-analysis of the deposited data

How the results depend on the processing

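The log2 odds of each paralog and the differences between paralogs kept their direction under other limits, the frequency itself, a shift of each mouse to a median log2 odds of 0, other scalings and pseudocounts, a higher expression minimum and the omission of each mouse, as far as each applied. Small differences between the crosses, none of them called, did turn. With quantile normalization the log2 expression difference became -0.0508 for Serpina1b and -0.0328 for Serpina1c. With each mouse left out in turn, it ranged from -0.453 to 0.0639 (Serpina1a), -0.0887 to 0.197 (Serpina1b), -0.115 to 0.282 (Serpina1c), -0.159 to 0.0131 (Serpina1d) and -0.145 to 0.0876 (the sum). The log2 odds difference between the crosses ranged from -0.0616 to 0.0570 (Serpina1b), -0.0663 to 0.0285 (Serpina1c) and -0.491 to 0.0971 (Serpina1e). The number of paralogs called imbalanced was 4, and with a mouse left out it was 0 to 1, where a cross has a single mouse that is assumed to vary like the others. Serpina1b was not called with limits 0.001 away from 0 and 1 (limma adjusted p = 0.0507) or after the median shift (0.0899), and over all alternatives its adjusted p ranged from 0.0356 to 0.187. With equal replicate numbers as a block, 2 paralogs were called imbalanced (Serpina1c and Serpina1d, with 775 calls among all genes in place of 1316), and 1 was called in expression between the crosses (Serpina1e, limma adjusted p = 9.52e-05, with 285 calls in place of 4), where the adjusted p reached 0.748 in another alternative. The labels do not say that equal numbers share a litter or batch, and mice of equal number deviated together with r = 0.00375 in log2(FPKM + 1) and 0.146 in log2 odds, so the block was not used. With a mouse left out, calls among all genes were 181 to 514 for imbalance, 13 to 21 for expression and 0 to 6 (in place of 3) for frequency between the crosses, for which the limits at 0.001 gave 1. Without read numbers, the counting error of a frequency is unknown, and reads shared by paralogs cannot be separated. With 4 mice, no exact p could fall below 0.13.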
